A study of Danio rerio with 6 samples.

Results

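Matrix metalloproteinases are zinc-dependent proteases that cleave collagens and other proteins of the extracellular matrix, and the tissue inhibitors of metalloproteinases (TIMPs) bind and block them. The members described here are all probe sets whose single gene symbol starts with mmp or timp followed by a digit. They number 11 of 15502 tested probe sets and stand for 9 genes of 8793 named: the proteases mmp2, mmp9, mmp11b, mmp13a, mmp14a, mmp14b and mmp17b, and the inhibitors timp2a and timp2b. A RefSeq gene table of zebrafish holds 30 protein-coding genes with such symbols, and the others were not analysed here. One further probe set, annotated to an inhibitor gene together with another gene, was left out by the rule.

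The treated embryos were wild-type AB zebrafish kept in 5 µM 11,12-EET from 24 to 36 h post fertilisation, and the control embryos were AB embryos of the same age kept in the solvent DMSO. 11,12-EET is an epoxide that cytochrome P450 enzymes form from arachidonic acid. Each treatment had 3 arrays of pooled, dechorionated whole embryos, with 25 embryos used per treatment group, and both groups grew at one temperature. The labels call the arrays biological replicates without saying whether clutches differed, so the p-values measure the spread between these pools. Values are levels on the log2 scale, where a step of 1 is a doubling. Levels of different probe sets are not on a common scale and were not set against each other, apart from sums over marker lists.

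Most metalloproteinases are made as inactive precursors held shut by their own propeptide, and are switched on when that propeptide is cut off. The secreted gelatinases mmp2 and mmp9 cleave denatured collagen and the type IV collagen of basement membranes. In mammals the membrane-anchored protease MMP14 activates MMP2, and TIMP2 takes part in that step as a bridge between them besides being an inhibitor. Zebrafish carry paired copies of both genes, mmp14a with mmp14b and timp2a with timp2b, and whether a probe set also detects the other copy was not tested. As background, in zebrafish mmp9 and mmp13a are known from white blood cells and from injured epidermis and fins.

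The 6 arrays correlated with each other at 0.943 to 0.957. The 7751 probe sets at or above the median level of 4.81 are called the brighter probe sets. The leading component of variation among them separated the replicate 3 arrays of both groups from the rest, and results are therefore also given without those arrays. The 13 measured markers of embryonic tissues (muscle, heart, brain, blood, epidermis and pigment) were all among the brighter probe sets. The 3' and 5' ends of the actin and GAPDH controls were compared as a sign of RNA quality, with 1 probe set per end. For actin the excess of the 3' end was 2.14 to 2.30 in EET arrays and 1.74 to 2.01 in DMSO arrays (log2), without overlap. For GAPDH this excess was 0.94 to 1.27 in EET arrays and 0.88 to 1.02 in DMSO arrays, overlapping. Whether RNA quality differed between the groups, and its part in the results below, was not tested.

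Across the family, mmp9 was about 2-fold higher in EET embryos and timp2b was also higher in every EET array, while the other 9 probe sets overlapped between the groups and differed by -0.25 to 0.21 on the log2 scale. No member passed the test. limma called 0 of 11 members at an adjusted p under 0.05 over all 15502 probe sets, where the background of calls was 0%, and 1 member, mmp9, had an unadjusted p under 0.05 against 5.27% of all probe sets. Among the brighter probe sets 0 of 8 members were called, against a background of 0.0774%, and 1, again mmp9, had an unadjusted p under 0.05, against 6.66%. By group mean 7 members lay above and 4 below their DMSO level, and the median difference was 0.12, against -0.0023 over all probe sets. In 2 of 11 members every EET array lay above every DMSO array, against 5.81% of all probe sets, and in 0 every EET array lay below, against 5.91%.

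**Figure D1:**
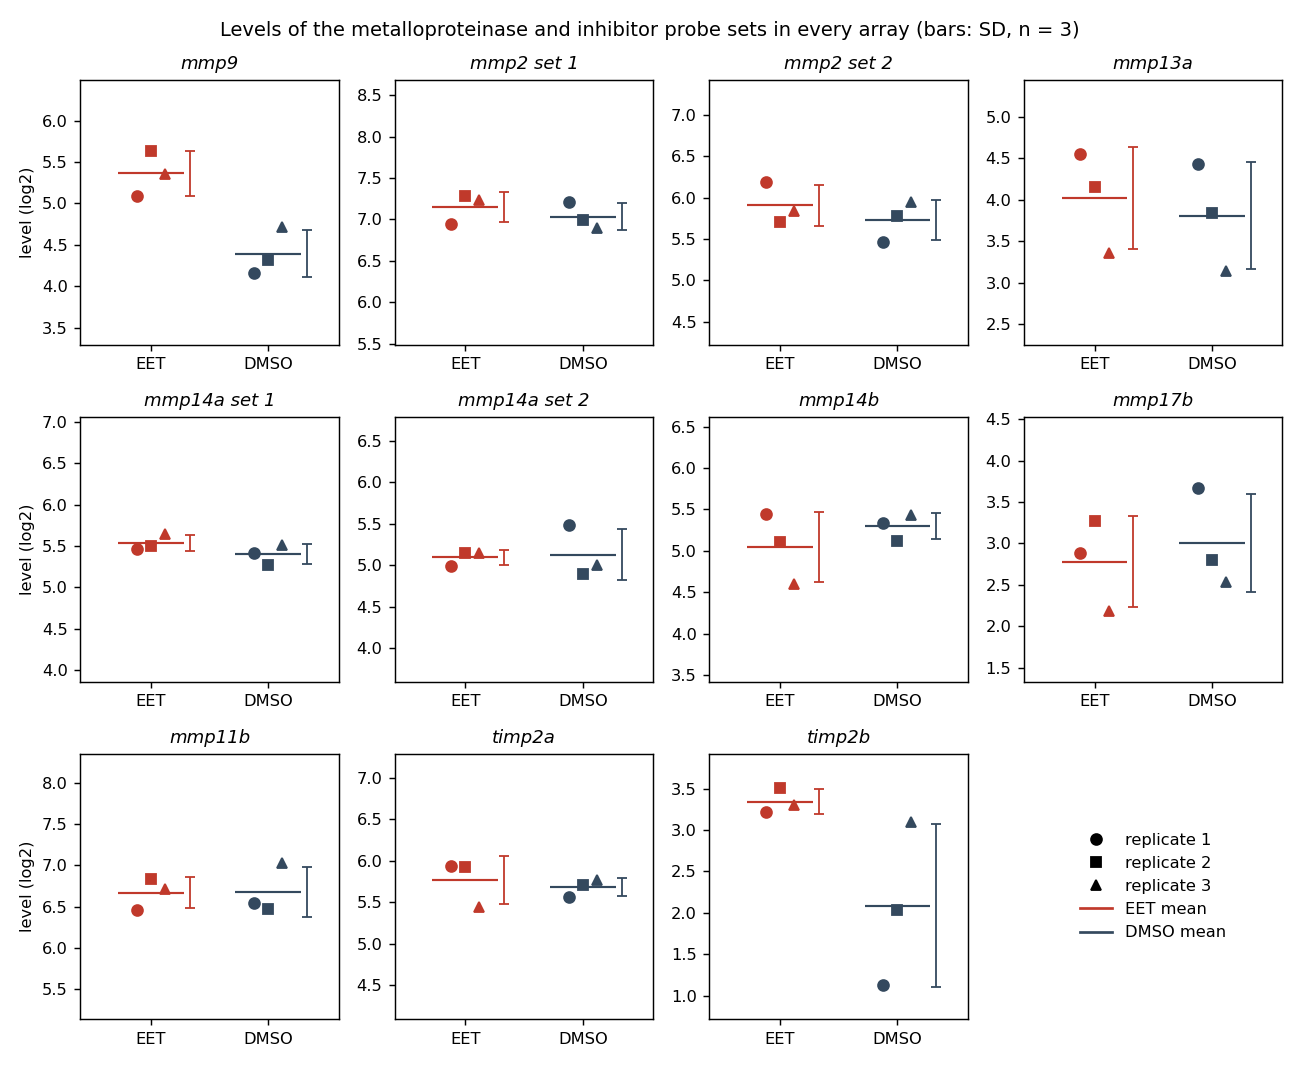
Levels (log2) of the 11 probe sets in every array, EET left and DMSO right, with marker shape for the replicate number, horizontal lines for group means and bars for the SD (n = 3); every panel spans the same height on its own range. In the panels of mmp9 and timp2b all EET points lie above all DMSO points, and the 3 DMSO points of timp2b spread over 1.96 log2 units.

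Of the gelatinases, mmp9, measured by 1 probe set, had levels of 5.10, 5.63 and 5.36 in the EET arrays, against 4.16, 4.32 and 4.71 in the DMSO arrays. The groups did not overlap, and the lowest EET array lay 0.38 above the highest DMSO array, which was replicate 3. The means were 5.36 ± 0.27 in EET and 4.40 ± 0.29 in DMSO (SD, n = 3 each), a log2 difference of 0.97 ± 0.21 (SE) or 1.96-fold, with a 95% interval of 1.35-fold to 2.83-fold in the fit over all probe sets (limma, adjusted p = 0.691). An exact permutation test of the 3 against 3 arrays (2-sided) gave p = 0.1, the smallest this design allows. Any probe set whose groups do not overlap reaches this value, timp2b included, and 11.7% of all probe sets had such groups.

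Within the brighter probe sets the standard error of mmp9 was 0.18 and its adjusted p 0.254 (limma). Its mean over the 6 arrays placed it only just inside this set, and it stood there through the EET arrays, since its DMSO mean of 4.40 lies below the limit of 4.81. In size, 6 of the 7751 brighter probe sets had a difference as high as or higher than that of mmp9, itself included. Its unadjusted p (limma) ranked 14 among them and 111 over all probe sets. The ranks and calls within the brighter set depend on mmp9 having entered it through the EET arrays. With the replicate number as a block mmp9 was called in the brighter set (adjusted p = 0.0482). With array weights it was also called there (adjusted p = 0.0332, with a difference of 1.14). Each of these settings called 0.155% of the brighter set. Over all probe sets neither setting called mmp9 (limma adjusted p = 0.842 with the block and 0.556 with array weights). With replicate 3 as a batch term it was not called in the brighter set (adjusted p = 0.0544). The difference was 1.13 in the 4 arrays of replicates 1 and 2 and 0.65 in the replicate 3 arrays.

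The other gelatinase gene, mmp2, was measured by 2 probe sets, numbered here by their mean level. Set 1 had levels of 6.95, 7.28 and 7.23 in EET arrays and 7.21, 6.99 and 6.90 in DMSO arrays. Set 2 had 6.19, 5.70 and 5.83 in EET arrays and 5.46, 5.77 and 5.94 in DMSO arrays. Both overlapped between the groups, and replicate 1 was the lowest EET array on set 1 and the highest on set 2, so the probe sets did not rank the arrays alike. Their differences were 0.12 ± 0.13 and 0.18 ± 0.16 (SE, brighter probe sets, limma adjusted p = 0.909 and 0.886). The 95% intervals reached from 0.885-fold to 1.33-fold and from 0.878-fold to 1.46-fold.

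The collagenase gene mmp13a, whose product cuts fibrillar collagen, had levels of 4.56, 4.16 and 3.35 in EET arrays and 4.43, 3.84 and 3.14 in DMSO arrays. The groups overlapped almost fully, because the level differed more between replicate numbers than between treatments: in both groups replicate 1 was the highest array and replicate 3 the lowest. The difference was 0.21 ± 0.45 (SE, limma adjusted p = 0.973). Between same-numbered arrays EET was higher by 0.12, 0.31 and 0.21. With the replicate number as a block the standard error was 0.11 and the adjusted p 0.849 (limma). The labels do not pair same-numbered arrays, and why their order was the same in both groups was not tested.

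Of the membrane-anchored proteases, mmp14a had 2 probe sets, set 1 with 5.47, 5.50 and 5.65 in EET arrays and 5.42, 5.27 and 5.51 in DMSO arrays, and set 2 with 4.99, 5.14 and 5.15 in EET arrays and 5.49, 4.90 and 5.00 in DMSO arrays. On set 1 the highest DMSO array exceeded the lowest EET array by 0.04, and on set 2 DMSO replicate 1 was above every EET array. Their differences were 0.14 ± 0.11 and -0.03 ± 0.16 (SE, brighter probe sets, limma adjusted p = 0.863 and 0.983). The paralog mmp14b had levels of 5.44, 5.10 and 4.60 in EET arrays and 5.33, 5.12 and 5.43 in DMSO arrays, and its difference was -0.25 ± 0.20 (limma adjusted p = 0.871). EET replicate 3 was the low array of mmp14b: the difference was -0.84 in the replicate 3 arrays and 0.04 in the other 4.

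The gene mmp17b encodes a membrane-type protease that in mammals is held by a lipid anchor. It was dim, with 2.89, 3.27 and 2.19 in EET arrays and 3.67, 2.80 and 2.54 in DMSO arrays. The groups overlapped, and the difference was -0.22 ± 0.41 (SE, limma adjusted p = 0.968), with a 95% interval from 0.420-fold to 1.74-fold. For mmp11b, a stromelysin 3 gene whose mammalian product is activated inside the cell by furin, the levels were 6.46, 6.84 and 6.71 in EET arrays and 6.55, 6.47 and 7.02 in DMSO arrays. Its group means of 6.67 in EET and 6.68 in DMSO were nearly the same, and the difference was -0.01 ± 0.16 (limma adjusted p = 0.995), with a 95% interval from 0.766-fold to 1.29-fold.

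The inhibitors differed from each other in how well they were measured. For timp2b the levels were 3.21, 3.51 and 3.30 in EET arrays and 1.13, 2.04 and 3.09 in DMSO arrays. The groups did not overlap, but the lowest EET array was only 0.12 above DMSO replicate 3, and the DMSO arrays spread over 1.96 against 0.29 for the EET arrays. The means were 3.34 ± 0.15 in EET and 2.09 ± 0.98 in DMSO (SD, n = 3 each), a difference of 1.25 ± 0.50 (SE, limma adjusted p = 0.930), with a 95% interval from 0.998-fold to 5.70-fold. The probe set lies at the 22.9th percentile of level, where no detection call is known, and 303 of all 15502 probe sets had a difference as high or higher. In the 4 arrays of replicates 1 and 2 the difference was 1.78, in the replicate 3 arrays 0.21, and on the scale of log2(2^value + 32), where low levels are squeezed together, it was 0.19.

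The paralog timp2a was brighter and tighter, with 5.94, 5.93 and 5.44 in EET arrays and 5.57, 5.71 and 5.77 in DMSO arrays. EET replicate 3 was the lowest of all 6 arrays while the other EET arrays were the highest. The difference was 0.09 ± 0.15 (SE, brighter probe sets, limma adjusted p = 0.942), and it was 0.30 in the 4 arrays of replicates 1 and 2 and -0.33 in the replicate 3 arrays.

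**Figure D2:**
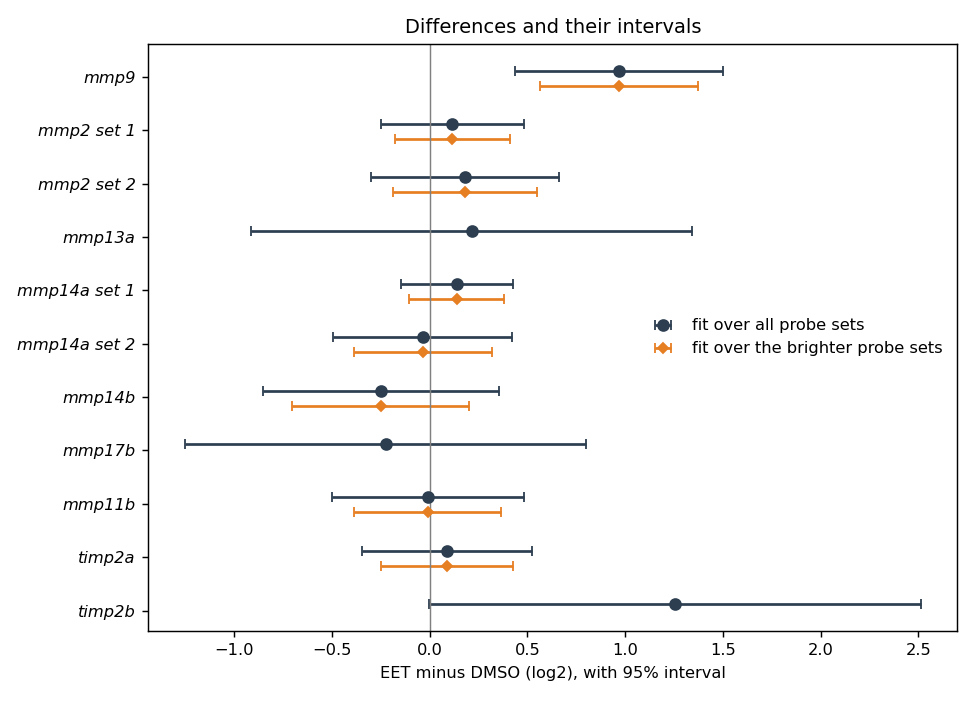
Differences of EET minus DMSO (log2) for the 11 probe sets, with 95% intervals from the fit over all probe sets (circles) and, for the 8 members among them, from the fit over the brighter probe sets (diamonds). The intervals of mmp9 lie above 0 before adjustment for the number of probe sets, that of timp2b reaches just below 0 and the others include 0.

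For the 7 overlapping members among the brighter probe sets, the 95% intervals of the fit to that set reached from 1.63-fold lower to 1.46-fold higher in EET. A 2-fold difference in either direction lies outside these intervals, but the 7 were grouped by their overlap in the same values. The bound did not hold in every setting. Without both replicate 3 arrays, the interval of set 2 of mmp2 reached a log2 difference of 1.07 in the fit over all probe sets. For mmp13a and mmp17b the intervals are wider and include 2-fold differences.

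**Figure D3:**
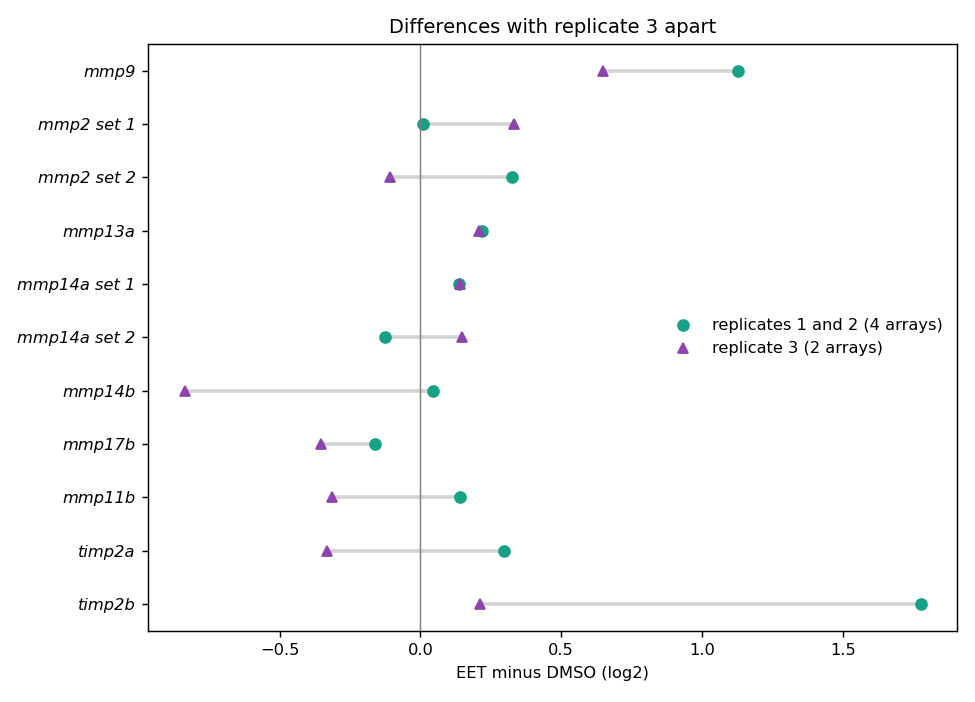
Differences of EET minus DMSO (log2) for the 11 probe sets in the 4 arrays of replicates 1 and 2 (circles) and in the 2 arrays of replicate 3 (triangles). mmp9 lies on the right of 0 in both, at 1.13 and 0.65, whereas mmp11b, timp2a, mmp14b, set 2 of mmp2 and set 2 of mmp14a lie on opposite sides of 0.

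Without both replicate 3 arrays, 4 members had every EET array above every DMSO array: mmp9, timp2b, timp2a and set 1 of mmp14a. With 2 arrays a group such a separation is easier to reach: 18.1% of all probe sets had every EET array above and 18.3% below every DMSO array in these 4 arrays. In 0 members every EET array lay below, and none of the 4 was called there (mmp9 among the brighter probe sets, limma adjusted p = 0.104).

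The genes whose levels followed mmp9 most closely over the 6 arrays were sought among 5312 other genes in the brighter set, by the mean absolute difference between levels after subtracting each gene's own mean. The closest was fosl2, which encodes a Fos protein and so part of the AP-1 transcription factor, at 0.158, and next were insig1, a sterol sensor gene, at 0.167 and ms4a17a.11 at 0.203. The sterol synthesis gene hmgcs1 at 0.208 and the Jun family gene junbb at 0.212 came after them. In all 5 the EET arrays lay wholly above the DMSO arrays. The levels of fosl2 were 5.36, 5.49 and 5.26 in EET arrays and 4.24, 4.46 and 4.50 in DMSO arrays, and those of junbb were 6.33, 6.71 and 6.53 in EET arrays and 5.87, 5.89 and 6.17 in DMSO arrays. All arrays of a group share their treatment, so genes that separate the groups in the same direction and by a similar amount will appear alike by this measure.

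**Figure D4:**
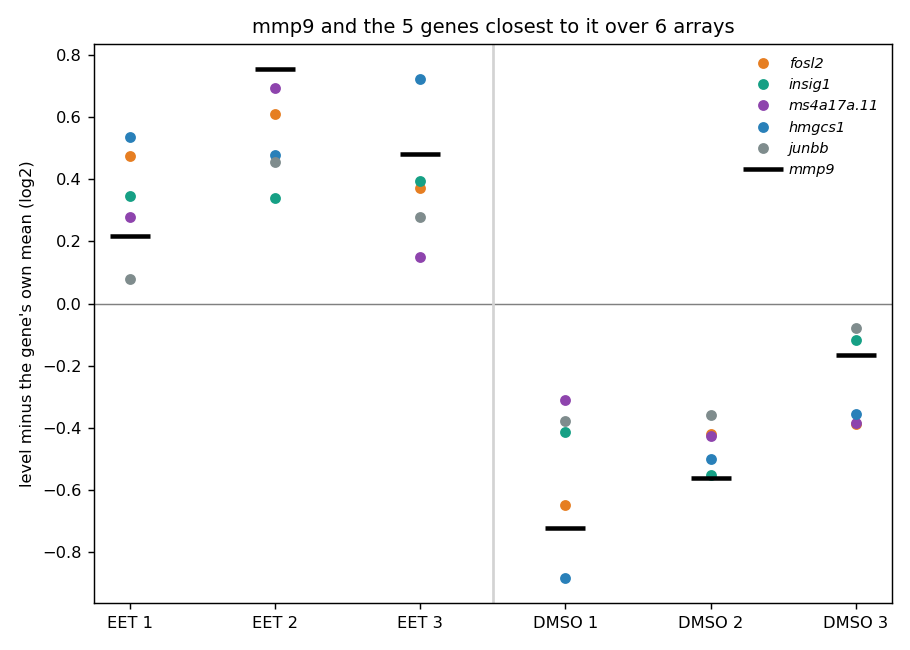
Level minus the gene's own mean over 6 arrays (log2) for mmp9 (bars) and the 5 closest genes (points), in the EET arrays on the left and the DMSO arrays on the right. All 6 genes lie above 0 in the EET arrays and below 0 in the DMSO arrays, with fosl2 closest at a mean absolute difference of 0.158.

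Genes known to regulate metalloproteinase transcription (AP-1, NF-kB, Stat3, TGF-beta, Ets and Runx factors with their feedback genes) were followed as a list, chosen with earlier results of these data known, so its direction is not independent evidence. By group mean 23 of 30 measured genes lay higher in EET and 7 lower, and the median difference was 0.16, against 51.4% higher and a median of 0.0063 over all named genes. In 9 of them every EET array lay above every DMSO array, against 6.37% of all named genes, and in 0 below, against 5.78%. Of the 30 genes 13 were among the brighter probe sets, and 1 of these was called, against a background of 0.0774%. This gene was fosl2, at 0.97 ± 0.11 (SE, limma adjusted p = 0.0323). Like mmp9 it stood in that set through its EET arrays, with a mean of 5.37 in EET and 4.40 in DMSO against the limit of 4.81, and over all probe sets it was not called (adjusted p = 0.326). The next by p were junbb at 0.54 ± 0.13, the Ets family gene etv4 at 0.31 ± 0.10 and the Myc family gene mycb at -0.29 ± 0.13, none of which passed. The stress-induced factor cebpb stood at 0.19 ± 0.11 and the Myc family gene mych at -0.25 ± 0.19, also without passing.

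Genes that activate or restrain metalloproteinases (plasminogen system, furins, cathepsins and cell-surface partners) had 18 measured genes, 11 of them higher and 7 lower in EET. Over all named genes 51.4% lay higher. The median difference of the list was 0.06. In either fit 0 of the list were called, against a background of 0% over all and 0.0774% among the brighter probe sets. In 1 of the 18, st14b, every EET array lay above every DMSO array, against 6.37% of all named genes. In 2, ctsla and plaua, every EET array lay below, against 5.78%. Both st14b and plaua lie below the median level, at 0.52 ± 0.32 and -0.92 ± 0.33 (SE, fit over all probe sets). For st14b the lowest EET array was at 3.47 and DMSO replicate 2 at 3.46, so the groups were barely apart. The gene plaua was very dim, with means of 0.07 in EET and 0.99 in DMSO. The plasminogen gene plg was 7.91 ± 0.19 in EET and 7.61 ± 0.21 in DMSO, and the cathepsin gene ctsla 11.70 ± 0.05 in EET and 11.84 ± 0.04 in DMSO. The endocytic receptor gene lrp1aa differed by -0.22 ± 0.10, the cell-surface proteoglycan gene sdc4 by 0.16 ± 0.11, the cathepsin gene ctsk by 0.15 ± 0.11 and the metalloproteinase inducer gene bsg (basigin) by 0.11 ± 0.14.

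Other genes of the metzincins, the wider clan to which the family belongs, had 9 measured members, 4 higher and 5 lower in EET. Whether each of them encodes an active protease was not tested. Their median difference was -0.02. In either fit 0 of them were called, against the same background of 0% and 0.0774%. In 1 of the 9 every EET array lay below every DMSO array, against 5.78% of all named genes, and in 0 above, against 6.37%. The sheddase genes adam10a, adam10b and adam17a differed by -0.16 ± 0.11, -0.02 ± 0.10 and 0.14 ± 0.14, and adam23a by 0.08 ± 0.11.

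Extracellular matrix genes, taken as possible substrates, formed the last of these lists. It too was chosen with earlier results of these data known, so its direction is not independent evidence. Whether metalloproteinases cleave each of the encoded proteins was not tested. In EET 10 of 28 measured genes lay higher and 18 lower, the median difference being -0.10, and in 2 every EET array lay above every DMSO array, against 6.37% of all named genes, and in 7 below, against 5.78%. Of the 28 genes 23 were among the brighter probe sets, and 1 of these was called, against a background of 0.0774%. This gene was and2, a fin fold fibril protein gene, at -1.38 ± 0.12 (limma adjusted p = 0.00993). The other fin fold fibril genes stood at -0.999 ± 0.15 for and3 (adjusted p = 0.122) and -0.72 ± 0.12 for and1 (adjusted p = 0.140), each with all EET arrays below all DMSO arrays, without passing. The fibronectin genes differed in sign, fn1b at 1.15 ± 0.19 and fn1a at -0.31 ± 0.09, and the type I collagen gene col1a1a stood at -0.23 ± 0.09, none of the 3 passing.

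**Figure D5:**
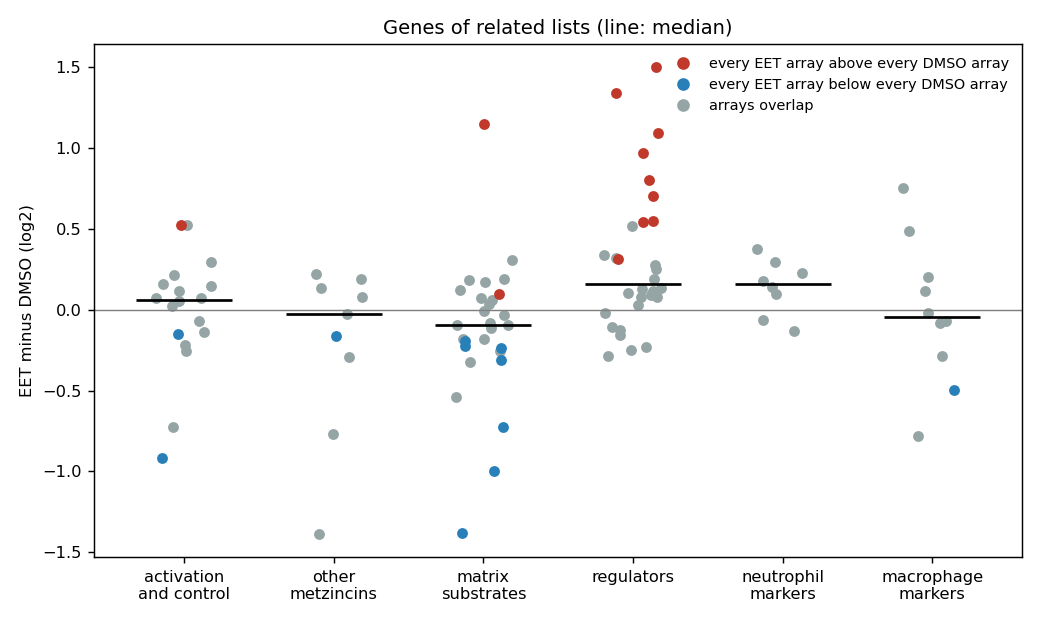
Differences of EET minus DMSO (log2) for the measured genes of 6 lists, 1 point per gene, with the median of each list as a line and colour for genes whose arrays do not overlap. The regulators hold 9 of 30 genes with every EET array above every DMSO array, and the neutrophil markers 0 of 8. Over all named genes the share is 6.37%.

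Because mmp9 and mmp13a are also transcribed in white blood cells, markers of those cells are given beside them. In whole embryos more cells of a type and more RNA per cell cannot be told apart. In EET 6 of 8 measured neutrophil markers lay higher and 2 lower, against 51.4% higher over all named genes. The median difference was 0.16. No marker separated the groups, against 12.1% of all named genes, and 8 markers are too few to read that count as a result. The summed level of the neutrophil markers on the linear scale was 747 to 858 in EET arrays and 656 to 790 in DMSO arrays, overlapping. Such sums add probe sets that are not on a common scale and mostly follow the brightest of them. The chemokine receptor gene cxcr4b differed by 0.38 ± 0.15 (limma, unadjusted p = 0.0349, adjusted p = 0.733), nccrp1 by 0.23 ± 0.13 and the granule proteoglycan gene srgn by 0.14 ± 0.18, while the transcription factor genes cebp1 and spi1b, both dimmer, stood at -0.13 and -0.06. The granule enzyme genes mpx and lyz were 5.25 ± 0.20 and 8.80 ± 0.21 in EET and 5.07 ± 0.09 and 8.70 ± 0.29 in DMSO. Among 10 macrophage markers 4 lay higher and 6 lower in EET, the median difference being -0.05. Their summed level was 3686 to 4212 in EET arrays and 4029 to 4150 in DMSO arrays. This sum mostly follows apoeb, by far the brightest of them, with means of 11.82 in EET and 11.90 in DMSO. The marker csf1ra had a mean level under 0. The differences were 0.20 ± 0.13 for lcp1, 0.12 ± 0.14 for lgmn, -0.08 ± 0.10 for apoeb and -0.02 ± 0.11 for coro1a. In 1 macrophage marker, grna, every EET array lay below every DMSO array, and in 0 above, against 12.1% of all named genes with groups apart. This marker lies below the median level and differed by -0.50 ± 0.18 (SE, fit over all probe sets, limma adjusted p = 0.930). With 10 markers that count cannot be read as a result either. Among 12 epidermis markers 4 lay higher and 8 lower in EET, the median difference being -0.03, and the summed level was 14327 to 15210 in EET arrays and 15185 to 15803 in DMSO arrays. The differences were -0.27 ± 0.13 for evplb, 0.13 ± 0.10 for epcam, -0.10 ± 0.10 for krt4, 0.13 ± 0.12 for krt18a.1, -0.20 ± 0.18 for krt5 and -0.09 ± 0.13 for ppl, none of which passed. Of the 12, every EET array lay above every DMSO array in 1, epcam, and below in 1, evpla, again against 12.1%. The marker evpla lies below the median level and differed by -0.59 ± 0.18 (SE, fit over all probe sets, limma adjusted p = 0.930). The part of these cells in the level of mmp9 was not tested.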

How the data were processed

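Biotin-labelled cRNA from 6 µg of total RNA was read on Affymetrix zebrafish arrays of 1 colour; this is stated per the labels' protocols. The authors' deposited values are log2 levels, 1 per probe set and array. The background correction, summarisation and scaling are not given in the sources used here. Base 2 was inferred because the top value of 13.63, as a natural log, would stand for more than the 65535 of a 16-bit scanner. Of 15617 probe sets, 115 controls were left out. Genes were named from the platform annotation, with 10795 tested probe sets having 1 symbol, 135 several and 4572 none, and updated through Entrez identifiers and the GRCz12tu RefSeq table (10711 matched, 1 symbol changed). The annotation names no build, so no coordinates are given.

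The contrast of EET with DMSO was fitted by lmFit and eBayes of limma 3.58.1 (R 4.3.3, 2-sided, no covariates), adjusted by Benjamini-Hochberg over all 15502 probe sets, and again over the 7751 brighter ones. Precision was limited by 3 arrays per group. In the lists a gene is represented by its brightest probe set. In simulated data with 200 changed probe sets, 27.4% of 2-fold changes were recovered over all probe sets and 94.8% over the brighter ones, and 7.16% and 4.75% of calls were false. The simulated noise was independent between arrays and lacked the replicate 3 component. All 200 changes were 2-fold or 4-fold, whereas 0 and 6 probe sets were called in the data. These shares may therefore overstate the recovery in these data.

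Members, lists and tests were chosen with earlier results of these data known. Every member is named; in the lists described, called genes and those with the smallest p among the brighter probe sets, up to 6 a list, are named; the tissue marker list is given by its count. The 5 genes closest to mmp9 follow the likeness rule given with them. The genes csf1ra, cebp1, spi1b, grna, evpla, plaua and st14b were named after their values were seen. Alternatives were quantile normalisation, median centring, a filter on dim probe sets, log2(2^value + 32), trend and robust settings, a block by replicate number, array weights, a batch term for replicate 3 or its omission, each array left out and another threshold.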

Additional observations from a re-analysis of the deposited data

Results flagged for a closer look

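On the control probe sets for actin, which lie outside the tested probe sets, the 3' minus 5' difference separated the groups on the log2 scale: it was 2.30, 2.17 and 2.14 in EET arrays and 2.01, 1.79 and 1.74 in DMSO arrays. For GAPDH the ranges overlapped, at 0.94 to 1.27 in EET arrays and 0.88 to 1.02 in DMSO arrays.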

How the results depend on the processing

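Over all probe sets 0 were called, and 1 after median centring, 1 with array weights, 1 at an adjusted p under 0.10, 2 with log2(2^value + 32) and 3 with trend and robust. With 1 array left out the count stayed at 0, and no member was called over all probe sets in any of the 16 alternatives. Among the brighter probe sets 6 were called, 10 with trend and robust, and 12 each with array weights, the replicate block and the replicate 3 batch term, and 0 to 6 with 1 array left out. There 0 members were called, but 1, mmp9, with array weights and with the replicate block. These calls depend on mmp9 having entered the brighter set through its EET arrays. Over all probe sets mmp9 was not called with array weights or the block (limma adjusted p = 0.556 and 0.842). The replicate block changed no other member's call. The labels give no pairing, and the check of one was divided: the deviations from the group means of arrays that share a number had correlations of 0.042, 0.056 and 0.148 in the whole table, against 0.177, 0.239 and 0.554 in the brighter part. The 2 members with groups apart became 4 without both replicate 3 arrays, and 2 to 4 with 1 array left out, where fewer arrays separate more easily. The difference of mmp9 lay between 0.83 and 1.13 with 1 array left out (adjusted p 0.118 to 0.967 among the brighter probe sets) and at 0.46 with log2(2^value + 32), and that of timp2b between 0.78 and 1.76. The sign changed in some alternatives for mmp11b, mmp13a, mmp14b, mmp17b and set 2 of mmp14a, whose main differences ran from -0.25 to 0.21. It did not change for mmp9, timp2b, timp2a, set 1 of mmp14a and both sets of mmp2. With array weights mmp11b was at 0.082 (0.14 in the fit to the brighter probe sets) and set 2 of mmp14a at 0.0026 (0.024). Without the replicate 3 arrays mmp11b was at 0.14 and mmp14b at 0.044. With 1 array left out mmp11b ranged from -0.12 to 0.16, mmp13a from -0.12 to 0.55, set 2 of mmp14a from -0.15 to 0.14 and mmp17b from -0.47 to 0.11. Of 275 member values under alternatives 253 kept their direction and side of the threshold. The cause of these changes was not tested. The probe sets of mmp13a, mmp17b and timp2b lie below the median level, and the part of low signal in their spread was not tested.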
